A study of Homo sapiens with 11 samples.

Results

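ANGPTL4 and 7 genes of lipid storage, lipid oxidation and their nuclear receptors (PLIN2, HILPDA, PDK4, CPT1A, PPARA, PPARD and PPARG) were followed in the RNA of PC-3 tumours. These 8 genes, of the 25590 listed, were picked by name for their roles in fatty acid metabolism, with the difference between A2M* and PBS tumours already known. They were therefore described, and not tested, in that comparison. All tumours derive from a single line, PC-3, which was established from a human prostate carcinoma. The cells were grown under the skin of male athymic nude mice (Crl:NU-Foxn1nu), which lack a thymus and mature T cells and were 8 weeks old. From day 7 to day 31 the mice received intraperitoneal A2M*, the transformed, receptor-binding form of the protease inhibitor alpha2-macroglobulin, at 5.6 mg per 20 g body weight every second day, or PBS as control. RNA was sequenced from 6 A2M* tumours and 5 PBS tumours, each named here by its group and number (PBS_125). The tumours are replicates as labelled, and no source used here ties each of them to a mouse of its own, so that p-values measure the spread between these samples.

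ANGPTL4 is a secreted protein that inhibits lipoprotein lipase and thereby limits the release of fatty acids from circulating triglycerides. Fatty acids that enter a cell are stored as triglycerides in lipid droplets, which PLIN2 coats and in which HILPDA restrains lipolysis, or they are oxidised in mitochondria after CPT1A has coupled them to carnitine. PDK4 inhibits pyruvate dehydrogenase and so favours fatty acids over glucose as fuel. The receptors PPARA, PPARD and PPARG bind fatty acids and induce genes of both routes, ANGPTL4, PLIN2, PDK4 and CPT1A among them. ANGPTL4, HILPDA and PLIN2 are also known to be induced by low oxygen through the hypoxia-inducible factors (HIF), which bind DNA at sites with the core letters ACGTG, or with the variant core GCGTG.

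On GRCh37, the build of the files, all members are protein-coding genes. ANGPTL4 lies at chr19:8428173-8439254 (plus strand), PLIN2 at chr9:19108373-19149288 (minus), HILPDA at chr7:128095903-128098472 (plus) and PDK4 at chr7:95212811-95225828 (minus). CPT1A lies at chr11:68522088-68611878 (minus), PPARA at chr22:46546424-46639652 (plus), PPARD at chr6:35310335-35395968 (plus) and PPARG at chr3:12328867-12475855 (plus). The counts cover all annotated exons of a gene together, between 1412 bases for HILPDA and 10049 bases for PPARA.

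Promoter windows, from 250 bases before to 50 bases after a start site, were read from RefSeq (GRCh38.p14) for 7 of the 8 members, 13 windows in all. HILPDA was not matched. The windows of ANGPTL4 and PLIN2 are shown because these genes varied with HIF target genes among the tumours, as described below, and the window of PDK4 because it varied less with them. PPARG varied with them more closely than PLIN2, and PPARA and CPT1A less closely than PDK4. The windows of these genes are not printed, but their matches are given below, so the 3 printed windows do not stand for all members. Capitals mark either core on either strand, and a match on the opposite strand is printed as its reverse complement. The windows lie at chr19:8363905-8364204 (plus), chr9:19127443-19127742 (minus) and chr7:95596467-95596766 (minus).
ANGPTL4: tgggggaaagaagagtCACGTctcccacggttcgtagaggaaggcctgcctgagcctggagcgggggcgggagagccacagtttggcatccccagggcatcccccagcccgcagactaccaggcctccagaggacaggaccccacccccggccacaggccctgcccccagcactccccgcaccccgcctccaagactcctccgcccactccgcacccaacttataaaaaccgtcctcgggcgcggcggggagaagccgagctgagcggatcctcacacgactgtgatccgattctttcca
PLIN2: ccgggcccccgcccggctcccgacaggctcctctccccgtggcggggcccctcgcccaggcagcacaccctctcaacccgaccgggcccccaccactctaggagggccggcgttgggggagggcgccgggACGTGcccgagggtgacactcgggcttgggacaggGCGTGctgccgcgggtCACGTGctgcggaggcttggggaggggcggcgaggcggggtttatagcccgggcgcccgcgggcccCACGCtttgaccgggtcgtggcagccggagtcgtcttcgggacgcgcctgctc
PDK4: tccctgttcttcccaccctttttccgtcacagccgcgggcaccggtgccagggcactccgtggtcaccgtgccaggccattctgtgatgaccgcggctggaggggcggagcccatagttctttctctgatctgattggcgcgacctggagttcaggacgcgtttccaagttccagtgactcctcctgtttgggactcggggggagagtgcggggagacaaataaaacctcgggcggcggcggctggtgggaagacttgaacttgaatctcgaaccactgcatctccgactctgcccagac

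The ANGPTL4 window held 1 ACGTG, on the opposite strand at -234 bases from the start site. The PLIN2 window held 3 ACGTG, at -120, -69 and -68 bases from the start site, of which the latter pair overlap on opposite strands, and 2 GCGTG, at -85 and -3. Neither core was found in the PDK4 window. One window of PPARG held 1 ACGTG, and GCGTG occurred 4 times in the window of PPARD, once in that of CPT1A, and in 1 of 2 windows of PPARA and 3 of 6 of PPARG. Of the 35116 promoter windows in the table, 21.4% held ACGTG and 36.5% held GCGTG. The half-site of nuclear receptors, AGGTCA, occurred in 3 windows of PPARG, 2 of which overlap, and in 13.8% of all windows. The repeat AGGTCANAGGTCA, to which PPAR receptors bind with their partner RXR, was found in no window of a member and in 8 of all windows (0.0228%). These matches are descriptions of the sequence only.

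Totals of 16958533 to 35874381 reads per tumour were counted on human genes. The epithelial markers KRT8, KRT18, KRT19, EPCAM and CDH1 were abundant in every tumour, with 4427 to 25031 counts each, while KLK3, a luminal prostate gene, was at 0 in all of them. Levels are given as CPM (counts per 1e+06 counted reads, with TMM normalization), which compares a gene between tumours, and as RPKM (RPM, the same measure without TMM, per kilobase of exon), which also allows genes to be compared. The counts are of whole tumours after removal of mouse reads, so that fewer cells expressing a gene and less RNA per cell cannot be told apart.

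ANGPTL4 was lower in the A2M* tumours. Its CPM in the PBS tumours, from PBS_123 to PBS_127, was 72.3, 122.5, 136, 75.6 and 87.6, and in A2M* tumours it ranged from 18.1 to 65.3 with a median of 40.3. The groups did not overlap, as was the case for 0.71% of all genes tested (118 of 16630). The mean was 98.9 ± 28.9 (SD, n = 5) in PBS and 40.0 ± 18.9 (n = 6) in A2M* tumours, a log2 fold change of -1.31 (SE 0.302), or 0.402-fold of PBS. Only 0.012% of genes had a log2 fold change this low or lower. Leaving out each tumour in turn gave values from -1.51 to -1.16.

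The droplet genes were also lower, with overlapping groups. PLIN2 CPM in the PBS tumours, from PBS_123 to PBS_127, was 11.5, 12.1, 27.7, 18.01 and 12.6, and in A2M* tumours it ranged from 6.35 to 12.6 with a median of 9.85. Tumour PBS_125 stood well above the other PBS tumours, and 5 of 6 A2M* tumours lay below all PBS tumours. The log2 fold change of PLIN2 was -0.77 (SE 0.233), and -0.50 without tumour PBS_125. HILPDA CPM was 47.2, 109, 148, 110.0 and 68.6 in the PBS tumours and 36.3 to 69.1, with a median of 63.1, in the A2M* tumours. Tumours PBS_123 and PBS_127 lay within the A2M* range, and 2 A2M* tumours lay below all PBS tumours. The log2 fold change of HILPDA was -0.80 (SE 0.261), and -0.59 without tumour PBS_125. Fold changes at or below those of PLIN2 and HILPDA were found in 0.168% and 0.156% of genes.

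The oxidation genes differed less between the groups. PDK4 was low, with 40 to 169 counts per tumour, and its CPM was 1.79, 2.13, 5.10, 3.97 and 3.78 in the PBS tumours and 1.66 to 4.02, with a median of 2.51, in the A2M* tumours. The A2M* tumours lay within or just below the PBS range, and the log2 fold change of -0.37 had an SE of 0.269 and was -0.17 without tumour PBS_125. CPT1A, the entry enzyme of mitochondrial fatty acid oxidation, had a CPM of 115.6, 114.9, 133, 115.1 and 125.3 in the PBS tumours and of 103 to 130.9, with a median of 116.6, in the A2M* tumours. The groups overlapped except for 2 A2M* tumours below all PBS tumours and 1 PBS tumour above all A2M* tumours, and the log2 fold change of -0.04 (SE 0.0718) lay between -0.18 and 0.11 at 2 SE to either side. Of all genes tested, 2.17% had a log2 fold change at or below that of PDK4, and 38% at or below that of CPT1A.

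Among the receptors, PPARG and PPARD were somewhat lower in the A2M* tumours and PPARA was not clearly so. PPARG CPM was 157.5, 155, 195, 172 and 173 in the PBS tumours and 123.2 to 174.5, with a median of 139.6, in the A2M* tumours. Only tumour A2M_129 reached the PBS range, and the log2 fold change was -0.26 (SE 0.0927). PPARD CPM was 74.4, 106, 87.4, 73.4 and 97.2 in the PBS tumours and 65.4 to 85.7, with a median of 73.8, in the A2M* tumours, with a log2 fold change of -0.24 (SE 0.101). PBS_123 and PBS_126 lay among the A2M* tumours. PPARA CPM was 21.8, 22.8, 28.1, 26.6 and 29.1 in the PBS tumours and 21.1 to 27.6, with a median of 24.8, in the A2M* tumours, with a log2 fold change of -0.07 (SE 0.0971). The PPARA groups overlapped, with 1 A2M* tumour below all PBS tumours and 2 PBS tumours above all A2M* tumours. Fold changes at or below those of PPARG, PPARD and PPARA were found in 4.93%, 5.88% and 28.9% of genes.

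**Figure D1:**
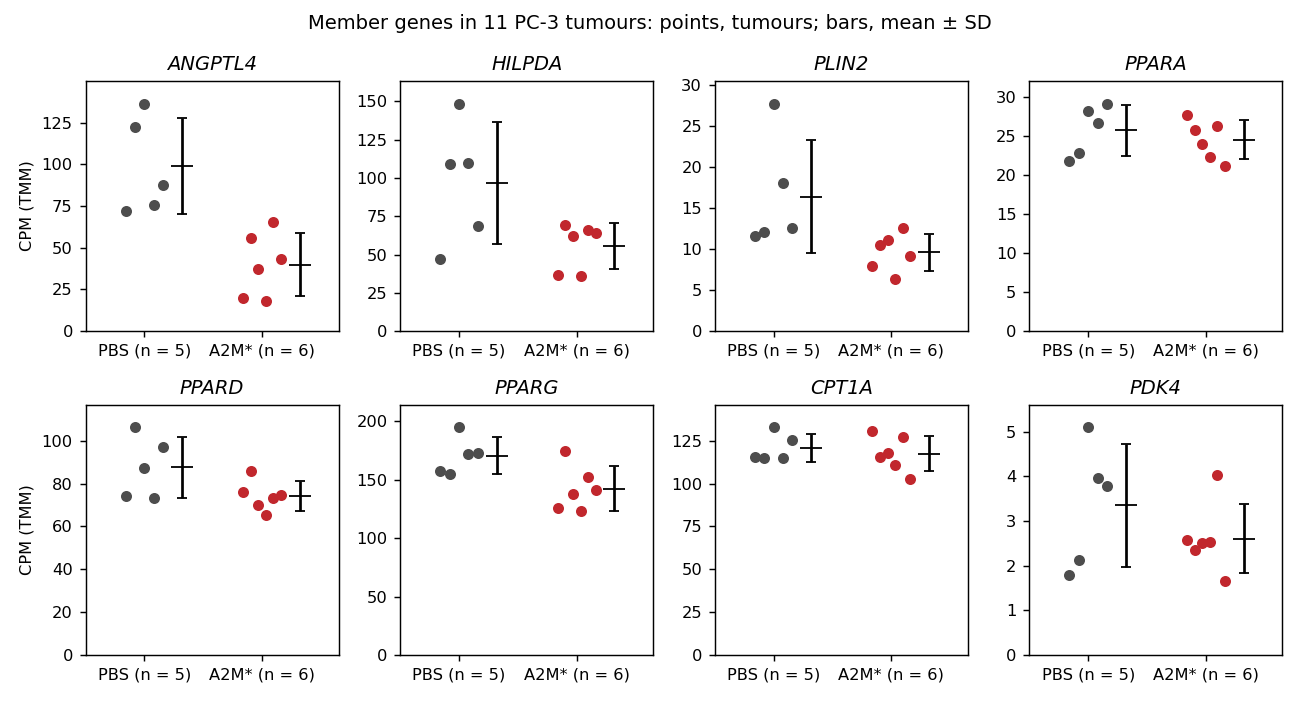
CPM (TMM normalized, axes from 0) of the 8 members in 5 PBS tumours (grey) and 6 A2M* tumours (red). Points are tumours and bars show the mean ± SD. ANGPTL4 has no overlap between the groups (18.1 to 65.3 against 72.3 to 136), while CPT1A and PPARA overlap.

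The fold change was below 0 for all 8 members, and it stayed below 0 in all alternatives run except for CPT1A when counts were scaled by library size only (0.01) and for PPARA with a score of HIF target genes as covariate (0.01). Since the genes were chosen with this comparison known, the shared sign is no independent evidence. At an adjusted p of 0.01 (edgeR's quasi-likelihood test with Benjamini-Hochberg adjustment), none of the 8 members and none of the 16630 genes passed (0%). At an unadjusted p under 0.05, 1178 genes passed (7.08%), 587 lower (3.53%) and 591 higher (3.55%) in A2M* tumours. With library size only, 308 were lower and 1022 higher, and with upper quartile factors 473 and 717. The exact test of edgeR and DESeq2 called 1 gene each at the adjusted threshold, which was REP15, no member, and limma-voom called 0.

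**Figure D2:**
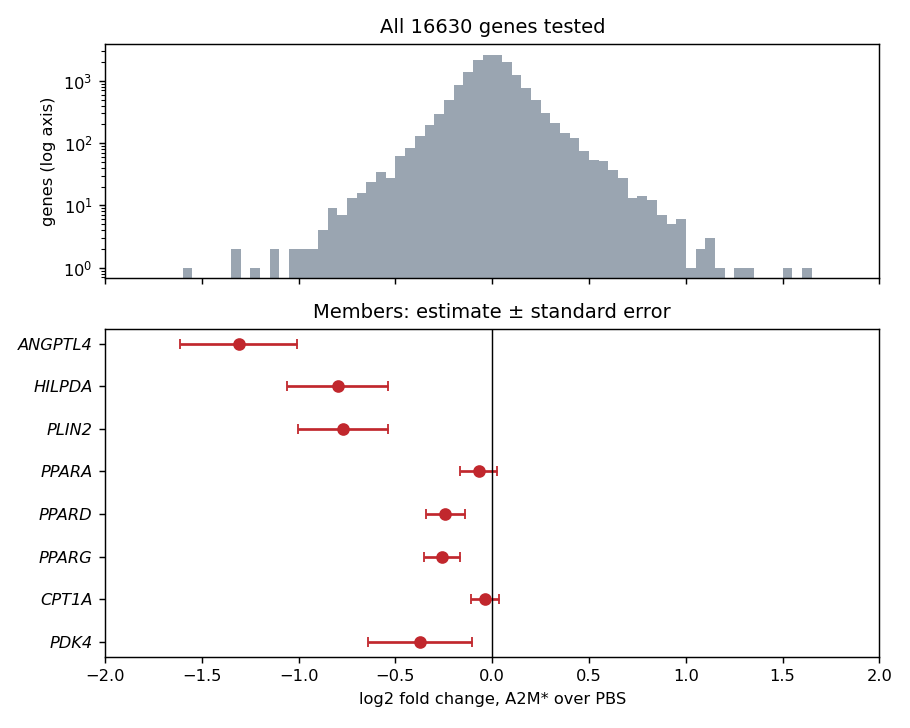
Above, the number of genes (log axis) by log2 fold change of A2M* over PBS, for 16630 genes. Below, the estimate ± standard error of each member on the same axis; ANGPTL4 lies at -1.31, HILPDA and PLIN2 near -0.8, and CPT1A and PPARA near 0.

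Compared per exon length, PPARG was the most abundant member, with a mean RPKM of 68.5 ± 8.88 (SD, n = 11). It was followed by HILPDA (52.3 ± 23.2), ANGPTL4 (34.7 ± 19.1), CPT1A (21.7 ± 1.64) and PPARD (17.96 ± 2.36). PLIN2 (6.02 ± 2.63), PPARA (2.49 ± 0.265) and PDK4 (0.795 ± 0.289) were lower. Neighbours in this order were compared within each tumour with a two-sided exact permutation test that flips signs over the 11 tumours, without adjustment over the 7 pairs. The pairs and their order were taken from the mean RPKM of these same 11 tumours, so these p-values are descriptive. The mean log2 ratio of RPKM was 0.50 for PPARG over HILPDA (exact p = 0.0107, higher in 8 of 11 tumours), 0.71 for HILPDA over ANGPTL4 (exact p = 0.00293, 10 of 11) and 0.28 for CPT1A over PPARD (exact p = 0.00488, 10 of 11). PPARD over PLIN2, PLIN2 over PPARA and PPARA over PDK4 had ratios of 1.67, 1.18 and 1.72 in the same direction in all 11 tumours, with an exact p of 0.000977 each, the smallest this test can give. ANGPTL4 and CPT1A did not differ beyond their spread, with a log2 ratio of 0.44 ± 0.93 (SD, n = 11; exact p = 0.142). Some of these ratios differed in size between the groups. HILPDA over ANGPTL4 was 0.34 in the PBS tumours (exact p = 0.188) and 1.02 in the A2M* tumours (exact p = 0.0312), and PPARG over HILPDA was 0.24 (exact p = 0.5) and 0.71 (exact p = 0.0312). CPT1A over PPARD was 0.18 (exact p = 0.188) and 0.37 (exact p = 0.0312). With 5 and 6 tumours the smallest p are 0.0625 and 0.0312, and the difference between the groups was not tested. In the PBS tumours ANGPTL4 had 50.8 ± 13.7 RPKM against 21.7 ± 1.25 for CPT1A, and in the A2M* tumours 21.3 ± 10.04 against 21.7 ± 2.02. Without tumour A2M_128 the ratio was 0.61, with an exact p of 0.0469.

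The members also differed in how much they varied among tumours of the same treatment. The SD of log2 CPM within groups was 0.63 for ANGPTL4, 0.54 for HILPDA, 0.51 for PDK4 and 0.44 for PLIN2, against 0.11 for CPT1A and 0.16 to 0.18 for the receptors. Tumour PBS_125 had the highest CPM of 6 of the 8 members (ANGPTL4, PLIN2, HILPDA, PDK4, CPT1A and PPARG). Tumour A2M_131 had the lowest CPM of 5 members (ANGPTL4, PLIN2, HILPDA, PPARD and PPARG).

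Variation within the groups was used to ask which genes follow ANGPTL4 from tumour to tumour, since the treatment difference had guided the choice of members. For each of 16629 other genes, edgeR's quasi-likelihood test estimated the slope on the log2 CPM of ANGPTL4, centred on the mean of its treatment group, with the group in the model. A slope of 1 means that a gene doubles when ANGPTL4 doubles. At an adjusted p of 0.05, 10 genes passed (0.0601%), all with a positive slope. The closest was MIR210HG, the host transcript of the hypoxia-induced miR-210, with a slope of 0.87 (SE 0.0836, adjusted p = 0.00221) and r = 0.966 within groups. PFKFB4, a regulator of glycolysis, followed with 0.60 (SE 0.0715, adjusted p = 0.0111), then ANKZF1 with 0.49, PPFIA4 with 0.78 and ZNF395 with 0.54. The other genes called were C8orf58, APLN, EFNA3, SLC2A1, which encodes the glucose transporter GLUT1 (slope 0.80, SE 0.116, adjusted p = 0.0239), and ADM, which encodes the vasodilator adrenomedullin (slope 0.83, SE 0.127, adjusted p = 0.036).

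Leaving out single tumours changed the number of genes called. It was 54 without tumour A2M_128, 15 without tumour PBS_126, 4 without tumour PBS_125 and 1 without A2M_129, A2M_131 or A2M_132, and MIR210HG was the gene called in each of these last 3 fits. It was also the only gene called with the log2 total count of each tumour as a covariate. On the negative side none passed, and the 5 genes with the smallest p were UTP14A and URB2, which act in ribosome assembly, the chaperone gene DNAJA1, the stress granule gene G3BP1 and GEMIN5. Their slopes lay between -0.30 and -0.27 and their adjusted p between 0.114 and 0.186.

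No other member passed the adjusted threshold in this fit. HILPDA came closest, with a slope of 0.65 (SE 0.161, adjusted p = 0.337, rank 68 of 16629 by p). Without adjustment over genes, HILPDA gave Pearson's r = 0.773 and Spearman's rho = 0.845 with ANGPTL4 within groups (two-sided exact permutation of tumours inside each group, p = 0.00361 and 0.00216). PPARG gave r = 0.762 and rho = 0.764 (exact p = 0.0153 and 0.0169; slope 0.20, SE 0.062, adjusted p = 0.457), and PLIN2 r = 0.654 and rho = 0.655 (exact p = 0.0175 and 0.0313; slope 0.49, SE 0.166, adjusted p = 0.478). Without the 2 tumours farthest from the median of ANGPTL4, A2M_128 and A2M_131, r was 0.628 for HILPDA, 0.52 for PPARG and 0.463 for PLIN2. Over all genes, 90% of r values lay between -0.618 and 0.615, and 4.78% of genes had a positive slope at an unadjusted p under 0.05, as did these 3 of the 7 other members.

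PPARD (r = 0.497, rho = 0.436; exact p = 0.0767 and 0.154), PDK4 (r = 0.225, rho = 0.182; exact p = 0.472 and 0.576), PPARA (r = 0.129, rho = 0.155; exact p = 0.697 and 0.644) and CPT1A (r = 0.114, rho = 0.191; exact p = 0.771 and 0.62) gave weaker values that did not pass an exact p of 0.05. Their r without the same 2 tumours was 0.598, 0.433, 0.364 and 0.542. In all, 22 such relations to ANGPTL4 were computed, 7 with members and 15 with the genes named from the slope fit, and these p-values are not adjusted over them.

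**Figure D3:**
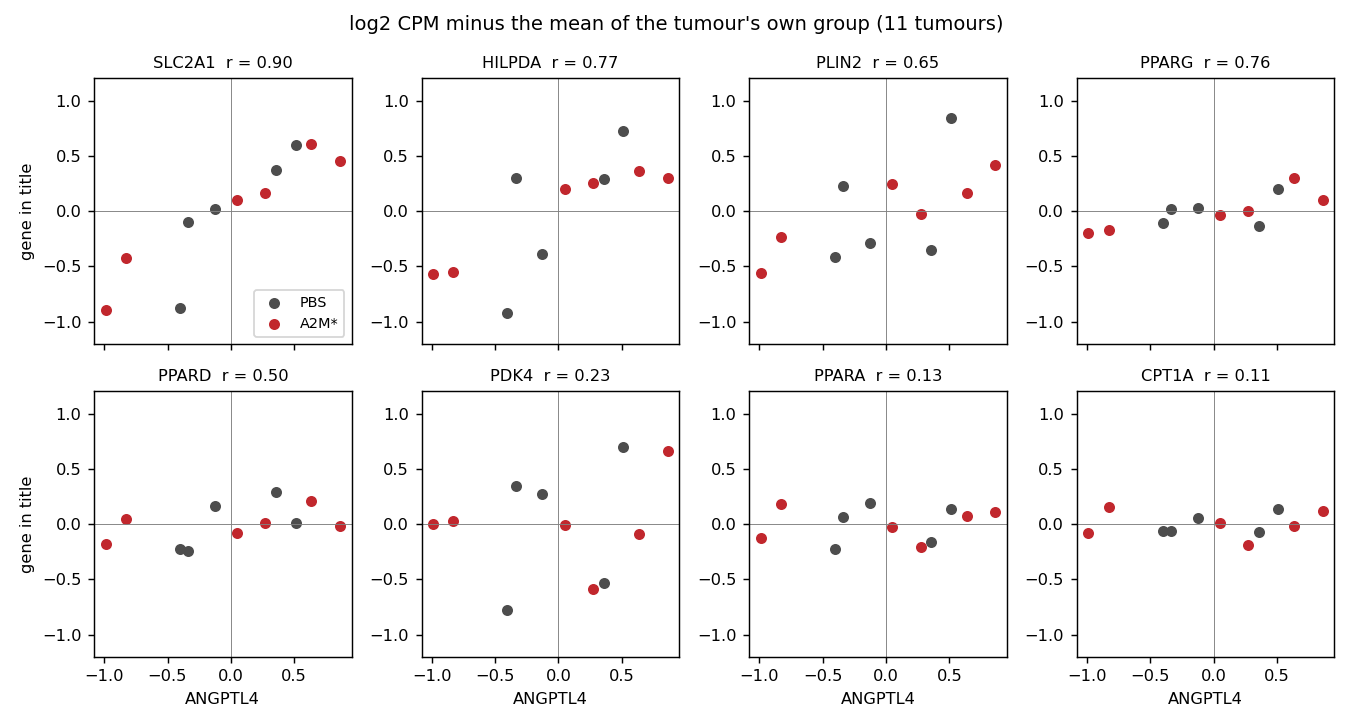
Log2 CPM of SLC2A1 and the 7 other members (y) against that of ANGPTL4 (x), each minus the mean of the tumour's own group, in PBS (grey) and A2M* (red) tumours. SLC2A1, HILPDA, PPARG and PLIN2 rise with ANGPTL4 (r = 0.902, 0.773, 0.762 and 0.654), and CPT1A and PPARA follow it least (0.114 and 0.129).

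A list of 29 HIF target genes that held no member was summarised as a score, the mean of their standardised log2 CPM. The score was 0.54 ± 0.72 (SD, n = 5) in PBS tumours and -0.45 ± 0.73 (n = 6) in A2M* tumours, with ranges of -0.57 to 1.35 and -1.55 to 0.30 that overlap. Within groups, ANGPTL4 followed the score with r = 0.916 and rho = 0.936 (two-sided exact permutation inside groups, p = 3.47e-05 and 5.79e-05), and with r = 0.973 without tumour PBS_123 and tumour A2M_131, which were farthest from the median score. HILPDA gave r = 0.907 (rho = 0.909, exact p = 0.000833 and 0.00103), PPARG r = 0.79 (rho = 0.736, exact p = 0.00792 and 0.0154) and PLIN2 r = 0.742 (rho = 0.691, exact p = 0.0142 and 0.0325). Without those 2 tumours r was 0.819, 0.771 and 0.58. For PPARD r was 0.591 (exact p = 0.0665), for PDK4 0.414 (exact p = 0.238), for PPARA 0.367 (exact p = 0.294) and for CPT1A 0.224 (exact p = 0.528). These 8 relations were chosen after the data were seen, and their p-values are not adjusted.

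With the score as a covariate, the log2 fold change of ANGPTL4 between A2M* and PBS tumours was -0.65 (SE 0.163), that of PLIN2 -0.27 (SE 0.208), that of HILPDA -0.08 (SE 0.161) and that of PPARG -0.09. The score had different means in the 2 groups, as given above, and its part in the difference of the members was not tested. HIF1A, which encodes an oxygen-regulated HIF subunit, had 54.5 ± 11.1 RPKM (SD, n = 11) and a log2 fold change of 0.13 (SE 0.147). Its slope on ANGPTL4 was -0.26 (SE 0.116, adjusted p = 0.549 by edgeR). These are RNA levels, and HIF protein was not measured here.

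Among the members themselves, the 28 pairs gave a median r of 0.44 within groups, with 26 pairs above 0 and a range from -0.06 to 0.82. HILPDA and PLIN2, the droplet genes, followed each other (r = 0.804, rho = 0.782; exact p = 0.00894 and 0.00981). A second set of high values joined the oxidation genes and PPARA. PPARA gave r = 0.821 with CPT1A (rho = 0.809; exact p = 0.00363 and 0.00419) and r = 0.821 with PDK4 (rho = 0.782; exact p = 0.00807 and 0.0163), and CPT1A with PDK4 gave r = 0.702 (rho = 0.618; exact p = 0.0135 and 0.0433). Without the 2 tumours farthest from the median of the first gene of each pair as ordered in the list, these values were 0.661 for PLIN2 with HILPDA, 0.732 for CPT1A with PPARA, 0.746 for PDK4 with PPARA and 0.667 for PDK4 with CPT1A. PLIN2 gave r = 0.746 with PPARG (rho = 0.709; exact p = 0.0065 and 0.0189). With the second set it gave r = 0.669 for PDK4 (rho = 0.6; exact p = 0.0483 and 0.0761), 0.477 for PPARA (exact p = 0.183) and 0.434 for CPT1A (exact p = 0.175). The pairs were examined after the data were seen, the p-values are not adjusted over the 28 pairs, and genes that share a library also share its errors of scaling.

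**Figure D4:**
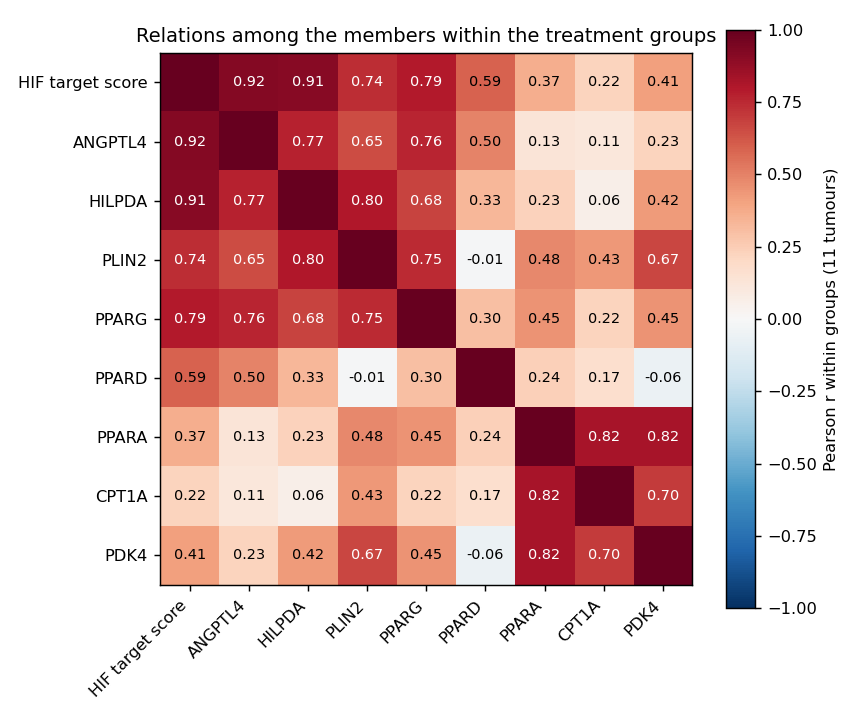
Pearson's r of log2 CPM within groups (11 tumours) for each pair of members and for the score of 29 HIF target genes. Red marks positive values. The HIF score, ANGPTL4, HILPDA, PLIN2 and PPARG form one block (0.65 to 0.92), and PPARA, CPT1A and PDK4 another (0.70 to 0.82). The blocks are not separate, since PLIN2 with PDK4 (0.67) lies above ANGPTL4 with PLIN2 (0.65).

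The enzymes and partners around the members were read from 12 lists with 174 genes, of which 151 were high enough to test. In the system on which ANGPTL4 acts, LPL, the lipase that it inhibits, had at most 1 human count in any tumour. GPIHBP1, which anchors LPL on endothelium, had at most 3. Mouse reads were removed before counting, so that expression of both genes by cells of the host was not measured here. Of the 16 genes listed there, 7 were tested and none passed an unadjusted p of 0.05 in A2M* against PBS (median log2 fold change -0.05). LMF2, a factor listed with lipase maturation, was the most abundant, with 35.9 ± 4.72 RPKM (SD, n = 11). FURIN, a protease that cleaves ANGPTL4, had 24.9 ± 3.40 RPKM, and LIPG, a related lipase, 6.56 ± 1.5 (these and LPL and GPIHBP1 were chosen after their values were seen).

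Other genes of droplets and lipolysis differed little between the groups. None of 16 genes of droplet coat and triglyceride synthesis and none of 7 of lipolysis passed the unadjusted threshold (medians -0.004 and -0.03). AUP1, a droplet surface protein, had 108 ± 6.08 RPKM and a log2 fold change of -0.05 (SE 0.0641). G0S2, an inhibitor of the main triglyceride lipase, had 121 ± 21.5 RPKM and a log2 fold change of -0.03 (SE 0.153). Of 16 genes of fatty acid uptake and activation, ACSL1, an acyl-CoA synthetase, was higher (0.23, SE 0.0886) and the transporter and synthetase SLC27A5 lower (-0.23, SE 0.098) at the unadjusted threshold, with adjusted p of 0.647 and 0.676 (edgeR). These 2 of 16 are 12.5%, against 7.08% over all genes, and the number was 1 without any one of PBS_123, PBS_125, PBS_127, A2M_112, A2M_129 or A2M_131. FABP5, a fatty acid carrier, was the most abundant of them, with 93.1 to 152 RPKM (log2 fold change -0.13, SE 0.112).

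In oxidation, 1 of 19 mitochondrial genes and 1 of 11 peroxisomal genes passed the unadjusted threshold (5.26% and 9.09%, against 7.08% over all genes). These were SLC25A20, the carnitine carrier, which was higher (0.23, SE 0.0833), and ACOT8, a peroxisomal thioesterase, which was lower (-0.17, SE 0.0652). The medians of both lists were near 0 (-0.003 and -0.005). Without 1 tumour the mitochondrial number was 3 (PBS_126) or 2 (PBS_127, A2M_112 or A2M_132), and the peroxisomal number was 0 (PBS_127) or 3 (PBS_126, A2M_112 or A2M_132). ACADVL, the dehydrogenase of very long acyl chains, was the most abundant with 309 ± 34.8 RPKM (-0.19, SE 0.0971), and ACAA1 led the peroxisomal list with 67.1 ± 7.05 RPKM. Among 10 genes of pyruvate dehydrogenase and its regulators, 2 passed the unadjusted threshold (20%, against 7.08% over all genes). These were the kinases PDK1 (-0.77, SE 0.192, unadjusted p = 0.00139, adjusted p = 0.599 by edgeR) and PDK3 (-0.35, SE 0.114, unadjusted p = 0.00799, adjusted p = 0.64), both lower. The number was 1 with the HIF score as covariate. PDHB, a subunit of the enzyme, differed by 0.01 (SE 0.0828). PDK1 mean CPM was 70.6 ± 14.1 (SD, n = 5) in PBS and 41.5 ± 11.9 (n = 6) in A2M* tumours. PDK1 is also on the list of HIF target genes.

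Of 18 PPAR target genes other than the members, 2 passed the unadjusted threshold (11.1%, against 7.08% over all genes). These were ACSL1 and SLC25A20, both higher in A2M* tumours. The number was 1 without tumour PBS_123, 4 without tumour PBS_127 and 0 with the HIF score as covariate. By sign alone 12 fold changes were above and 6 below 0, against 8220 and 8410 over all genes, and the median was 0.06, against -0.002 over all genes. None of 12 PPAR partners and coregulators passed the unadjusted threshold (median log2 fold change 0.03). Of 11 glucocorticoid-responsive genes, 2 passed the unadjusted threshold (18.2%, against 7.08% over all genes). TSC22D3 was higher (0.21, SE 0.0876) and TFCP2L1 lower (-0.40, SE 0.128), with adjusted p of 0.663 and 0.64 (edgeR). The number was 1 without A2M_129, without PBS_126 or with the HIF score as covariate. The metallothionein MT2A had the highest level, with 429 ± 72.7 RPKM. None of 10 other regulators, HIF1A among them, passed.

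All 29 HIF target genes had a log2 fold change below 0 in A2M* against PBS, with a median of -0.38, and none passed the adjusted threshold. At an unadjusted p under 0.05, 19 were lower (65.5%, against 3.53% of all genes lower), and the other 10 did not pass. The list was chosen with earlier results of these data known, so that its shared sign and this share are no independent evidence. Without tumour PBS_125, 9 of the 29 passed the unadjusted threshold, when 4.09% of all genes did so in either direction. ENO1 and PGK1, enzymes of glycolysis, were the most abundant named, with 613 ± 82.2 and 555 ± 116 RPKM, and had log2 fold changes of -0.32 (SE 0.0997) and -0.43 (SE 0.137). Within groups, all 29 had a positive slope on ANGPTL4, with a median of 0.44 against 0.0005 over all genes, and 3 passed the adjusted threshold, PFKFB4, SLC2A1 and ADM. None of the genes of the other lists did in this fit, while DESeq2 called 1 each among the pyruvate dehydrogenase genes and the PPAR partners. The number of HIF targets called was 15 with DESeq2, 7 without tumour A2M_128, 6 without PBS_126 and 1 without PBS_125. It was 0 without A2M_129, A2M_131 or A2M_132, and 0 with log2 total counts or the HIF score as covariate. Of 122 tested genes on the lists that are no HIF targets, 3 were higher and 4 lower at an unadjusted p under 0.05 in A2M* against PBS, with a median log2 fold change of 0.004.

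**Figure D5:**
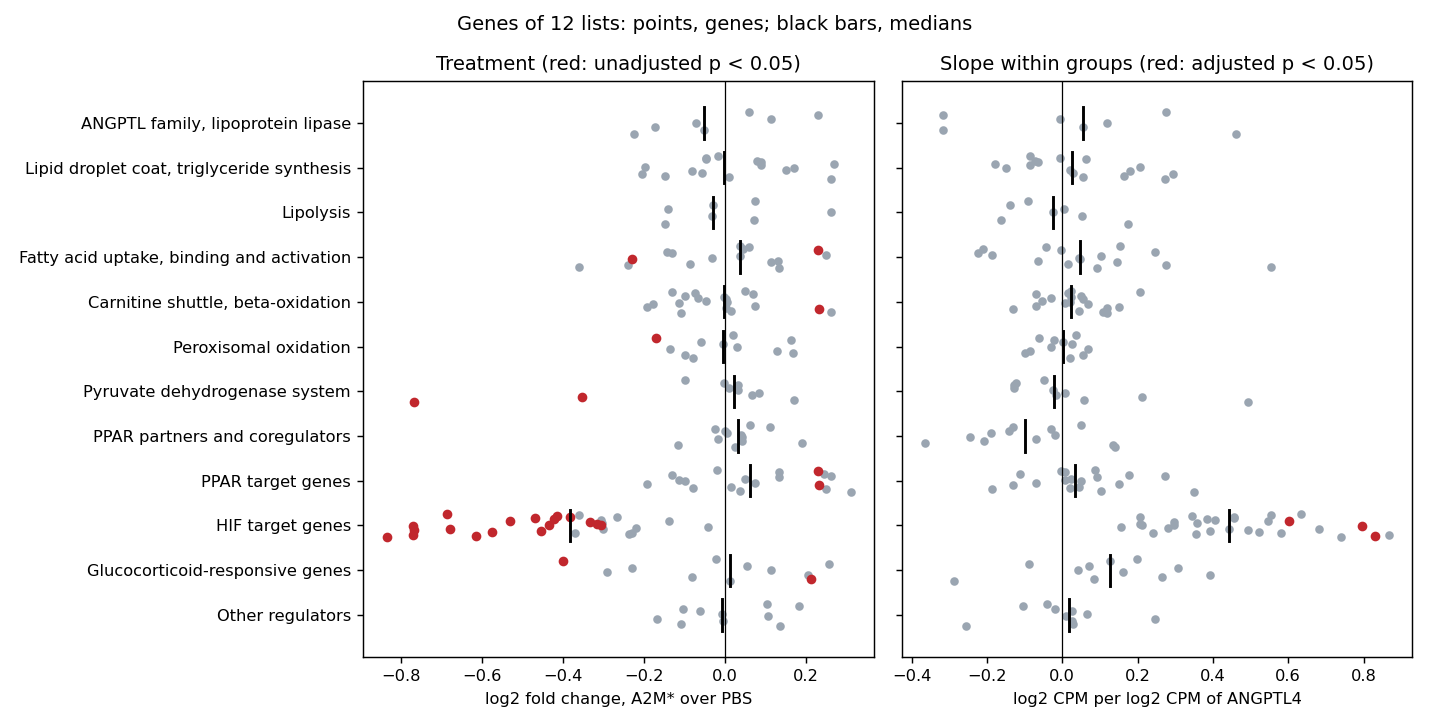
Genes of 12 lists (points) by log2 fold change of A2M* over PBS (left; red, unadjusted p under 0.05) and by slope on ANGPTL4 within groups (right; red, adjusted p under 0.05), with black bars at the medians. The 29 HIF target genes lie below 0 on the left and above 0 on the right (medians -0.38 and 0.44), and the medians of the other lists lie within 0.13 of 0.

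Markers of other cell types were also counted among the human reads, and how many of these reads came from mouse cells was not tested. The adipocyte markers, which bear on genes of lipid storage, summed to 6.75 to 22.3 CPM in PBS and 6.71 to 17.0 CPM in A2M* tumours. Of the 7, 6 had at least 3 counts in every tumour (ADIPOQ 22 to 66 counts), CIDEA had at most 2, and none was at 0 throughout. The summed level had r = 0.0961 with ANGPTL4 within groups. Most of this sum was CFD, with mean CPM of 8.9 in PBS and 6.72 in A2M* tumours, against 1.6 and 1.43 for ADIPOQ. Macrophage markers summed to 31.4 to 41.9 CPM in PBS and 31.9 to 40.6 CPM in A2M* tumours (r = 0.0247), endothelial markers to 22.5 to 33.0 and 22.4 to 47.4 CPM (r = -0.329), and fibroblast markers to 317 to 694 and 318 to 926 CPM (r = 0.269). CD68 made up most of the macrophage sum (mean CPM of 25.1 in PBS and 23.7 in A2M* tumours) and PECAM1 most of the endothelial sum (17.5 and 17.4). Most of the fibroblast sum was COL1A1, with mean CPM of 455 in PBS and 588 in A2M* tumours, a level like that of the keratin genes, while DCN had at most 3 counts in any tumour. The carcinoma markers summed to 2103 to 2698 and 1684 to 2479 CPM and had r = 0.53. The correlations are descriptions over 11 tumours, and the part of these cells in the results was not tested.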

How the data were processed

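RNA of 11 PC-3 tumours was measured. The authors sorted reads by species with xenome, mapped human reads to hg19 with TopHat2 and counted them with featureCounts on RefSeq genes; strand setting and versions are not given in the sources used here. The deposited counts are raw. The deposited RPM are counts per 1e+06 of each total, which was checked (largest difference 4.99e-07), and the deposited RPKM divide RPM by exon length. A floor of 3 counts corresponds to 0.0836 to 0.177 RPM across the tumours and covers counting error only.

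Groups followed the labels. Members and lists were chosen with earlier results of these data known. Counts were filtered with filterByExpr, scaled with TMM (factors 0.958 to 1.03) and tested with edgeR 4.0.16 in R 4.3.3. Standard errors are the log2 fold change over the square root of F. log2 CPM used a prior count of 2. Named genes were, per list, the most abundant, the 2 with the smallest unadjusted p under 0.05 and the 2 with the smallest slope p past its threshold, and over all genes the 5 with the smallest slope p in each direction; 1 gene that this rule names is not reported here. The steps were tested on simulated data. Alternatives were DESeq2 1.42.0, limma-voom (limma 3.58.1), the exact test of edgeR, other scalings, filters and covariates, and each tumour left out. Figures used matplotlib 3.10.9. Mouse reads were not analysed here.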

Additional observations from a re-analysis of the deposited data

How the results depend on the processing

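The number of genes past an adjusted p of 0.01 between A2M* and PBS tumours was 0 with edgeR's quasi-likelihood test, 1 with DESeq2, 1 with the exact test, and 0 with every tumour left out in turn. The 10 genes related to ANGPTL4 within groups became 90 with DESeq2, 119 without the group term, 23 with ranks of ANGPTL4, 1 with log2 total counts as covariate, 0 with the HIF target score as covariate, 1 at an adjusted p of 0.01, and 1 to 54 with a tumour left out. Negative slopes made up 28 of the 90, 34 of the 119 and 17 of the 54 without tumour A2M_128. The 0 members related to ANGPTL4 became 1 with DESeq2 (HILPDA, adjusted p = 0.0148) and 3 without the group term (PLIN2, HILPDA and PPARG), and stayed at 0 with any tumour left out. The log2 fold change of ANGPTL4 ranged from -1.51 to -1.16 with a tumour left out, without the score. With the score as covariate and all tumours it was -0.65, and the slopes on ANGPTL4 turned negative for PLIN2 (-0.137), HILPDA (-0.35), PDK4 (-0.733), CPT1A (-0.104), PPARA (-0.341) and PPARD (-0.0932), in a fit where the score and ANGPTL4 had r = 0.916 within groups. With a tumour left out, slopes ranged from -0.0202 to 0.0865 for CPT1A and from -0.0166 to 0.109 for PPARA. Of the 7 neighbouring pairs in the order of levels, 6 passed, 6 to 7 with a tumour left out, 4 by RPM without length, and 0 in the PBS tumours alone. There 5 tumours cannot give an exact p under 0.0625, and the ratios of PPARG to HILPDA (0.242), HILPDA to ANGPTL4 (0.338) and CPT1A to PPARD (0.176) were also smaller. By RPM that of HILPDA to ANGPTL4 was 0.276 (exact p = 0.111). The log2 ratio of ANGPTL4 to CPT1A was -0.18 in the A2M* tumours alone and -1.08 by RPM without length, and that of PLIN2 to PPARA was -1.08 by RPM. Of 160 alternative fold changes of members, 156 moved by less than the spread between tumours. The 4 that moved more were all with the HIF target score as covariate. They were those of ANGPTL4 (-0.646), PLIN2 (-0.274), HILPDA (-0.0804) and PPARG (-0.0876). No paired analysis was possible because the groups share no tumour numbers. PDK4, with at most 169 counts, is the member whose values depth limits most.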
